A study of Monodelphis domestica with 6 samples.

Results

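The collagen genes outside the cartilage set are the genes with a symbol of the form COL, number, A, number, with COL9A1, COL9A2, COL9A3 and COL11A2 left out. They numbered 32 of the 35665 genes in the files. The RNA-seq libraries came from the gray short-tailed opossum, Monodelphis domestica, and were made to ask how the transcriptome of skin fibroblasts differs from that of the iPSCs reprogrammed from them. The 2 neonatal skin fibroblast (neoSF) libraries were primary, wild type and untreated cultures from the skin of neonatal female pups (10 days old) of the inbred strains FD2M1 and LSD1, 1 library per strain, grown in a serum medium. The 4 iPSC (monoiPSC) libraries were the wild type FD2M1 line and the LSD1 line at passages 15 and 25, made from those neoSFs with episomal plasmids carrying human OCT4, SOX2, NANOG, KLF4, LIN28 and cMYC, and grown without feeders on Matrigel with LIF, bFGF and a ROCK inhibitor. The plasmid set also carried EBNA1 and mp53DD, a dominant-negative mouse p53. Each line contributed both of its passages, so the 4 libraries are not 4 independent lines, and p-values measure the spread between these libraries.

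Collagens are the main structural proteins of the extracellular matrix. Their chains share Gly-X-Y repeats and wind into trimers, which leave the cell as procollagen or mature chains and join into fibrils, networks or filaments. Dermal fibroblasts are known for making fibrillar collagen, while epithelia, endothelia and early embryonic cells lay down the type IV network of basement membranes. By class the 32 genes were 8 fibrillar genes, 7 fibril-associated (FACIT) genes, 5 genes of the basement membrane network, 3 beaded-filament genes of type VI, 3 short-chain network genes of types VIII and X, 3 transmembrane genes, and 1 gene each of the multiplexins (COL15A1), the anchoring fibrils (COL7A1) and the remaining types (COL26A1). On MonDom5, 10 of the 32 lay on chromosome 2, 6 on chromosome 1, 5 on chromosome 4 and 4 on chromosome 7. COL1A2, COL2A1, COL6A1 and COL18A1 were not analysed here. COL1A2, the partner of COL1A1 in type I, and COL6A1, a partner of COL6A2 in type VI, are thus absent from every value below.

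The total count was between 14278794 and 16982978 in neoSFs and between 28684754 and 35564261 in monoiPSCs. Values are given as normalized read counts (NRC), the raw count times the scaling factor of the library in the DESeq-normalized values of the authors. A count of 3, taken as the detection floor, was an NRC of 4.75 to 5.85 in neoSFs and 1.55 to 1.88 in monoiPSCs, and it covers counting error only. The neoSF libraries were read in-house as shorter single-end reads and the monoiPSC libraries by a service as longer paired-end reads, so the platform and the cell type cannot be told apart. The labels held against marker genes other than collagens. Of 9 fibroblast markers, 8 were lower and 0 higher in monoiPSCs, with a summed NRC of 858387 and 1210115 in neoSFs against 6199.7 to 10934 in monoiPSCs. All 6 pluripotency markers were higher in monoiPSCs, and POU5F1, SOX2, NANOG, LIN28A and PRDM14 had at most 3 counts in either neoSF library. The summed NRC of 6 chondrocyte markers, most of it ACAN, was 93029 in FD2M1 neoSFs. It was 5338 in LSD1 neoSFs and 3501 to 7697 in monoiPSCs. In FD2M1 and LSD1 neoSFs, ACAN was at 67335 and 1712, SOX9 at 19063 and 1519 and HAPLN1 at 5040 and 1796. SOX6 was at 1550 and 294 and SOX5 at 37.1 and 16.9, while MATN1 was under the floor at 4.88 and 0. In monoiPSCs ACAN was at 15.9 to 73.4, SOX9 at 1832 to 2368 and SOX6 at 105 to 161, all below the FD2M1 neoSFs. HAPLN1 was at 821 to 5053 in monoiPSCs, so the FD2M1 neoSFs did not stand apart in it. SOX5 was higher in monoiPSCs than in either neoSF library, at 119 to 485.

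The 32 collagen genes held 7.09% of all counts in FD2M1 neoSFs and 7.70% in LSD1 neoSFs. Their share in monoiPSCs was 0.134% (passage 15) and 0.190% (passage 25) in the FD2M1 line, with 0.141% and 0.158% in the LSD1 line. The neoSF mean was 7.40% ± 0.427 (SD, n = 2) and the monoiPSC mean 0.156% ± 0.0251 (SD, n = 4), a ratio of 47.4 (exact permutation test over 15 splits, two-sided p = 0.0667, the smallest that 4 libraries against 2 can give). In these bulk libraries fewer cells of a type and less RNA per cell cannot be told apart. COL1A1 alone accounted for 3.37% and 4.35% of the neoSF counts.

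Of the 32 genes, 29 reached an NRC of 20 in both neoSF or all 4 monoiPSC libraries and were tested among 13072 genes with edgeR's quasi-likelihood test. Genes with a fold change of 2 or more and a p of 0.05 or less after Benjamini-Hochberg adjustment are here termed differentially expressed (DE), and SE is the standard error of a log2 value. In monoiPSCs 17 genes were lower, which is 58.6% of those tested against 21.6% of all genes tested, and 6 were higher, which is 20.7% against 24.3%. The median log2 fold change was -3.38, and over all genes tested it was 0.08. The groups did not overlap for 24 of the 29 genes, 82.8% against 73.2% of all genes tested. Of these 24, all monoiPSC values were the lower ones in 18 (background 37.1%) and the higher ones in 6 (background 36.1%). The share of genes that were DE and lower exceeded its background and that of genes DE and higher was near it. For groups apart with monoiPSCs higher, the 6 genes were 20.7% of those tested, below the 36.1% of all genes. Without the FD2M1 neoSF library 19 genes were lower and 5 higher, and without the LSD1 neoSF library 16 were lower and 7 higher. COL4A3, COL4A4 and COL19A1 were not tested, with a highest NRC of 20.1, 10.7 and 9.79 in any library.

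**Figure D1:**
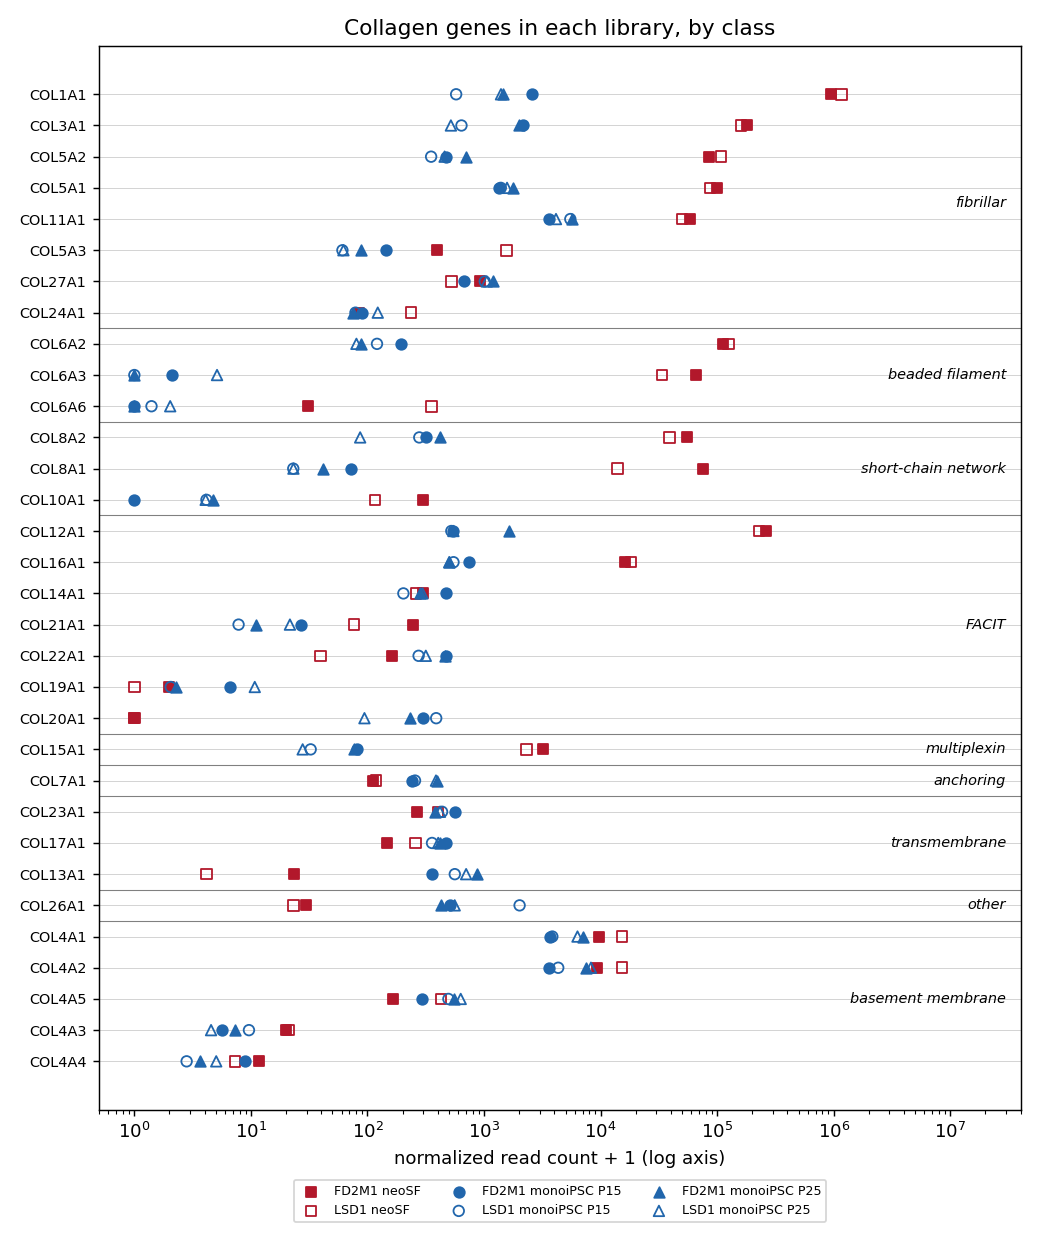
NRC plus 1 of the 32 collagen genes on a log axis, 1 row per gene and 1 point per library, with the genes grouped by class and squares for neoSFs, circles for passage 15 and triangles for passage 25 (filled FD2M1, open LSD1). The neoSF squares of the classical fibrillar genes and of COL6A2, COL6A3, COL8A1, COL8A2 and COL12A1 lie far to the right of the monoiPSC points, while COL4A1 and COL4A2 lie close together in all 6 libraries.

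Of the 8 fibrillar genes 6 were lower, 0 were higher and 2 were not DE. For this and every class below, the background was 21.6% lower and 24.3% higher, and no class was tested as a set. Values of the monoiPSC libraries are given in the order FD2M1 passage 15, FD2M1 passage 25, LSD1 passage 15 and LSD1 passage 25. COL1A1 (gene 100019354, chromosome 2), the major chain of the type I fibrils of skin and bone, had an NRC of 938218 in FD2M1 neoSFs, 1170167 in LSD1 neoSFs and 2572, 1445, 575 and 1396 in the monoiPSC libraries. All 4 monoiPSC libraries lay below both neoSF libraries, and the log2 fold change was -9.36 (SE 0.62, adjusted p = 3.26e-05). Among the monoiPSC libraries LSD1 at passage 15 was lowest and FD2M1 at passage 15 highest.

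COL3A1 (gene 100028423, chromosome 4), the type III chain of extensible tissues, showed an NRC of 178851 in FD2M1 neoSFs, 160528 in LSD1 neoSFs and 2137, 2008, 639 and 519 in the monoiPSC libraries. Its log2 fold change was -6.90 (SE 0.65, adjusted p = 0.000131), with both FD2M1 monoiPSC libraries above both LSD1 libraries. COL5A1 (gene 100019638, chromosome 1), a type V chain that helps to nucleate fibrils, had 100167 in FD2M1 neoSFs, 86612 in LSD1 neoSFs and 1335, 1767, 1391 and 1574 in the monoiPSC libraries. Its partner COL5A2 (gene 100028445, chromosome 4) was measured at 85509 in FD2M1 neoSFs, 108301 in LSD1 neoSFs and 474, 697, 351 and 458 in the monoiPSC libraries. The log2 fold change was -5.85 (SE 0.19, adjusted p = 7.81e-06) for COL5A1, and -7.52 (SE 0.32, adjusted p = 9.47e-06) for COL5A2. The ratio of COL5A2 to COL5A1 counts was 0.854 and 1.25 in neoSFs and between 0.252 and 0.394 in monoiPSCs, without overlap.

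COL11A1 (gene 100029695, chromosome 2), a type XI chain that co-assembles with types II and V, was lower as well. Its NRC was 58950.5 in FD2M1 neoSFs, 49855 in LSD1 neoSFs and 3592, 5736, 5495 and 4141 in the monoiPSC libraries, a log2 fold change of -3.42 (SE 0.23, adjusted p = 3.35e-05). The groups stood apart, and the ratio of COL11A1 to COL5A1 counts was 0.589 and 0.576 in neoSFs and 2.63 to 3.95 in monoiPSCs. COL5A3, a further type V chain, was the remaining lower fibrillar gene, at 390.4 and 1550.0 in the neoSF libraries and 60.0 to 143 in monoiPSCs (log2 fold change -3.38, SE 0.56, adjusted p = 0.00159). The log2 fold change of COL5A3 was -4.05 without the FD2M1 neoSFs and -2.05 without the LSD1 neoSFs. COL24A1 and COL27A1, fibrillar collagens with a shorter and interrupted helix, were not DE. For COL27A1 the NRC was 924 in FD2M1 neoSFs, 526 in LSD1 neoSFs and 668, 1194, 1013 and 1054 in the monoiPSC libraries, and the groups overlapped (log2 fold change 0.54, SE 0.30, adjusted p = 0.158). COL24A1 was at 84.0 in FD2M1 neoSFs, 235 in LSD1 neoSFs and 88.7, 74.3, 77.9 and 122 in the monoiPSC libraries. Its log2 fold change of -0.72 (SE 0.44, adjusted p = 0.189) rested on the neoSF library used, since it was -1.28 (adjusted p = 0.0283) without the FD2M1 neoSFs and 0.21 (adjusted p = 0.716) without the LSD1 neoSFs.

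All 3 type VI genes, which encode the beaded microfilaments around cells, were lower. COL6A2 (gene 100026420, chromosome 2) had an NRC of 111091 in FD2M1 neoSFs, 125649 in LSD1 neoSFs and 192, 87.1, 119.7 and 79.4 in the monoiPSC libraries, a log2 fold change of -9.85 (SE 0.44, adjusted p = 9.78e-06). COL6A3 (gene 100017951, chromosome 2), the large chain of the heterotrimer, had 66161 in FD2M1 and 33471 in LSD1 neoSFs but raw counts of 2, 0, 0 and 8 in monoiPSCs. It had 8 counts or fewer in each monoiPSC library, whereas COL6A2 stayed detectable in all 4. The fitted log2 fold change of COL6A3, -14.96 (SE 0.77, adjusted p = 1.53e-05), depends on those few counts and was -16.60 (adjusted p = 4.97e-05) without LSD1 at passage 25. Per COL6A2 count there were 0.596 and 0.266 COL6A3 counts in neoSFs and 0.00585, 0, 0 and 0.0519 in monoiPSCs. COL6A6, an alternative to COL6A3 in the trimer, had 29.7 in FD2M1 and 352 in LSD1 neoSFs. All 4 monoiPSC libraries were under the floor of 3 counts, so COL6A6 was at least 101-fold lower on the NRC scale, with the mean of both neoSF libraries set against 3 counts in the library where they weigh most. That bound rests on the LSD1 neoSFs, since it was 15.8-fold from the FD2M1 neoSFs alone. Its fitted log2 fold change was -8.49 (SE 1.16, adjusted p = 0.000661), and -9.39 without the FD2M1 neoSFs, -5.79 without the LSD1 neoSFs.

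The short-chain network genes COL8A1, COL8A2 and COL10A1 were lower as well. Type VIII collagen forms hexagonal lattices in vessel walls and the corneal basement membrane, and type X marks hypertrophic cartilage. COL8A1 (gene 100017530, chromosome 4) had an NRC of 76102 in FD2M1 neoSFs, 14024 in LSD1 neoSFs and 70.7, 40.2, 22.1 and 22.2 in the monoiPSC libraries. COL8A2 (gene 100031423, chromosome 4) was at 55163 in FD2M1 neoSFs, 39085 in LSD1 neoSFs and 315, 421, 277 and 85.5 in the monoiPSC libraries. Both genes were clear of overlap, with log2 fold changes of -10.08 (SE 0.84, adjusted p = 7.94e-05) and -7.33 (SE 0.58, adjusted p = 6.45e-05). Without the FD2M1 neoSFs the log2 fold change of COL8A1 was -8.41 and without the LSD1 neoSFs -10.84. COL8A1 differed more than COL8A2 between the neoSF libraries, and the ratio of their counts was 1.38 in FD2M1 and 0.359 in LSD1 neoSFs. COL8A1 was higher in the same FD2M1 library that held the higher chondrocyte markers, and their part in this value was not tested. The strain of the neoSFs is represented by 1 library each, so this difference has no replicate check. COL10A1 was at 299 and 115 in neoSFs and at no more than 6 counts in a monoiPSC library (log2 fold change -6.22, SE 0.77, adjusted p = 0.000415; -5.40 without the FD2M1 neoSFs).

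FACIT collagens sit on the surface of fibrils. Of 7 FACIT genes 3 were lower (background 21.6%), 2 were higher (background 24.3%), 1 was not DE and COL19A1 was not tested. COL12A1 (gene 100021716, chromosome 2), which decorates type I fibrils in tendon and skin, had an NRC of 264699 in FD2M1 neoSFs, 227511 in LSD1 neoSFs and 539, 1635, 523 and 545 in the monoiPSC libraries. COL12A1 thus had a log2 fold change of -8.15 (SE 0.58, adjusted p = 4.14e-05), and -8.74 without FD2M1 at passage 25. In monoiPSCs it was highest in FD2M1 at passage 25, at 1635, and the other 3 libraries lay between 523 and 545. COL16A1 (gene 100032175, chromosome 4), a FACIT chain of skin and cartilage, had 16117 in FD2M1 neoSFs, 18230.4 in LSD1 neoSFs and 739, 498, 546 and 502 in the monoiPSC libraries, a log2 fold change of -4.81 (SE 0.21, adjusted p = 9.69e-06). COL21A1 was lower from 243 and 75.8 in neoSFs to 6.84 to 26.1 in monoiPSCs (log2 fold change -3.21, SE 0.64, adjusted p = 0.00363), and its log2 fold change was -2.17 without the FD2M1 and -3.82 without the LSD1 neoSFs.

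COL15A1 (gene 100011550, chromosome 6), a multiplexin that links basement membranes to the fibrils below them, had an NRC of 3224 in FD2M1 neoSFs, 2312 in LSD1 neoSFs and 79.9, 75.5, 31.6 and 26.8 in the monoiPSC libraries. The groups did not overlap and the log2 fold change was -5.60 (SE 0.47, adjusted p = 7.97e-05). COL14A1, a FACIT chain of differentiated dermis and tendon, was not DE. Its NRC was 297 in FD2M1 neoSFs, 260.0 in LSD1 neoSFs and 469.9, 280.2, 202 and 295 in the monoiPSC libraries, with overlapping groups and a log2 fold change of 0.26 (SE 0.35, adjusted p = 0.531). Its log2 fold change turned to just below 0 without FD2M1 at passage 15.

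Among the type IV genes 1 was lower, 2 were not DE and 2 were not tested. COL4A1 and COL4A2 encode the trimer found in nearly every basement membrane and lie next to each other in RefSeq. COL4A1 (gene 100023705, chromosome 7) had an NRC of 9648 in FD2M1 neoSFs, 15246 in LSD1 neoSFs and 3699, 7037, 3851 and 6331 in the monoiPSC libraries. COL4A2 (gene 100023678, chromosome 7) had 9382 in FD2M1 neoSFs, 15255 in LSD1 neoSFs and 3611, 7435, 4328 and 8262 in the monoiPSC libraries. In both genes every monoiPSC library lay below both neoSF libraries, and the passage 25 libraries came closest to them. COL4A1 was DE with a log2 fold change of -1.16 (SE 0.32, adjusted p = 0.0151), which was -0.78 (adjusted p = 0.122) without the LSD1 neoSFs and then was not DE. COL4A2 stood just outside both thresholds at -0.97 (SE 0.37, adjusted p = 0.0515). It was DE with RLE scaling, at -1.01 (adjusted p = 0.0473), with DESeq2, without the FD2M1 neoSFs and without LSD1 at passage 25. The mean NRC was 12447 ± 3958 (SD, n = 2) and 5229.6 ± 1705 (SD, n = 4) for COL4A1, and 12319 ± 4152 (SD, n = 2) and 5909 ± 2284 (SD, n = 4) for COL4A2. COL4A5, a chain of kidney and epithelial basement membranes (chromosome X), was not DE with an NRC of 164 in FD2M1 neoSFs, 426 in LSD1 neoSFs and 294, 548, 493 and 629.7 in the monoiPSC libraries and a log2 fold change of 0.82 (SE 0.44, adjusted p = 0.143). The groups overlapped, and COL4A5 was DE at 1.68 (adjusted p = 0.0225) without the LSD1 neoSFs. COL4A3 and COL4A4, the chains of the kidney filter that lie next to each other in RefSeq, stayed under the filter.

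Of the 29 genes tested, 6 were higher in monoiPSCs: COL7A1, COL17A1, COL13A1, COL20A1, COL22A1 and COL26A1. COL7A1 (gene 100027049), the anchoring fibril chain that ties epidermis to dermis, had an NRC of 110.1 in FD2M1 neoSFs, 118 in LSD1 neoSFs and 241, 393, 255 and 386 in the monoiPSC libraries. This was a log2 fold change of 1.59 (SE 0.31, adjusted p = 0.00361). COL17A1, a transmembrane collagen of hemidesmosomes, had 145 in FD2M1 neoSFs, 257 in LSD1 neoSFs and 473, 416, 357 and 404 in the monoiPSC libraries. For both genes the 4 monoiPSC values exceeded the 2 neoSF values, and COL17A1 reached 1.12 (SE 0.29, adjusted p = 0.0115), but 0.76 (adjusted p = 0.0547) without the FD2M1 neoSFs and 1.11 (adjusted p = 0.0518) with the passages of a line summed. Of 6 keratinocyte markers listed only 2, DSP and TP63, were present in the files. Their summed NRC was 189 and 139.8 in neoSFs and 25.3 to 71.3 in monoiPSCs. Nearly all of it was DSP, at 182 and 136 in neoSFs and 25.0 to 71.3 in monoiPSCs. TP63 was at 6.83 and 3.70 in neoSFs and had at most 3 counts in every monoiPSC library. The part of these markers in COL7A1 and COL17A1 was not tested.

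COL13A1, a transmembrane collagen of adhesion sites and the neuromuscular junction, had an NRC of 22.5 in FD2M1 neoSFs, 3.17 in LSD1 neoSFs and 355, 874, 560.0 and 701 in the monoiPSC libraries. The raw counts of COL13A1 were 11.5 in FD2M1 neoSFs and 2 in LSD1 neoSFs, the latter under the floor. Its log2 fold change was 5.71 (SE 0.73, adjusted p = 0.000476), with 7.67 without the FD2M1 neoSFs and 4.83 without the LSD1 neoSFs. COL22A1, a FACIT chain of tissue junctions such as that of muscle and tendon, had 162 in FD2M1 neoSFs, 38.5 in LSD1 neoSFs and 469, 466, 274 and 315 in the monoiPSC libraries. The groups did not overlap, and the log2 fold change was 2.04 (SE 0.57, adjusted p = 0.0166), with 3.41 (adjusted p = 0.002) without the FD2M1 neoSFs, 1.34 (adjusted p = 0.0366) without the LSD1 neoSFs and 2.03 (adjusted p = 0.0648) with passages summed. Skeletal muscle markers were also higher in sum, at 1801 and 438 in neoSFs and 3319, 2094, 6771 and 19999 in monoiPSCs, where LSD1 at passage 25 stood apart. Of the 5 markers 4 were tested, of which 1 was higher (background 24.3%) and 0 lower (background 21.6%). MYOG was at 206 and 22.2 in neoSFs and 985 to 5549 in monoiPSCs. ACTA1 was at 621 and 104 in neoSFs and 754 to 9645 in monoiPSCs. For DES and MYOD1 the groups overlapped. DES was at 883 and 296 in neoSFs and 315 to 4213 in monoiPSCs, and MYOD1 at 92.0 and 14.3 against 35.1 to 591. MYF5 had 3 counts or fewer in both neoSF libraries. Neither COL13A1 nor COL22A1 was highest in LSD1 at passage 25, and the part of these markers in both genes was not tested.

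COL20A1, a FACIT chain, and COL26A1, which stands outside the main classes, were absent or low in neoSFs. COL20A1 (gene 100619266, chromosome 1) had 0 counts in both neoSF libraries and an NRC of 297, 231, 388 and 93.2 in monoiPSCs. Against the floor of 3 counts per library it was at least 43.1-fold higher on the NRC scale by the mean of the 4 libraries, and at least 15.9-fold by the lowest, LSD1 at passage 25, with an adjusted p of 0.000848 in edgeR. COL26A1 had an NRC of 29.0 in FD2M1 neoSFs, 22.2 in LSD1 neoSFs and 514, 428, 2017 and 559 in the monoiPSC libraries. Its log2 fold change was 5.20 (SE 0.91, adjusted p = 0.00204), and 4.38 (adjusted p = 0.000296) without LSD1 at passage 15, which held the highest value. That library also had the highest summed NRC of the melanocyte markers, 15555 against 4601 to 8096 in the other monoiPSC libraries, nearly all of it from DCT at 15279 while TYR was at 2.63. The part of those markers in COL26A1 was not tested.

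COL23A1, the third transmembrane gene and a gene of epithelial adhesion, was not DE. Its NRC was 262 in FD2M1 neoSFs, 401 in LSD1 neoSFs and 560.4, 378, 435 and 418 in the monoiPSC libraries, with overlapping groups. The log2 fold change was 0.53 (SE 0.26, adjusted p = 0.118). COL27A1, COL24A1, COL14A1, COL4A2 and COL4A5 were the other genes tested and not DE.

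**Figure D2:**
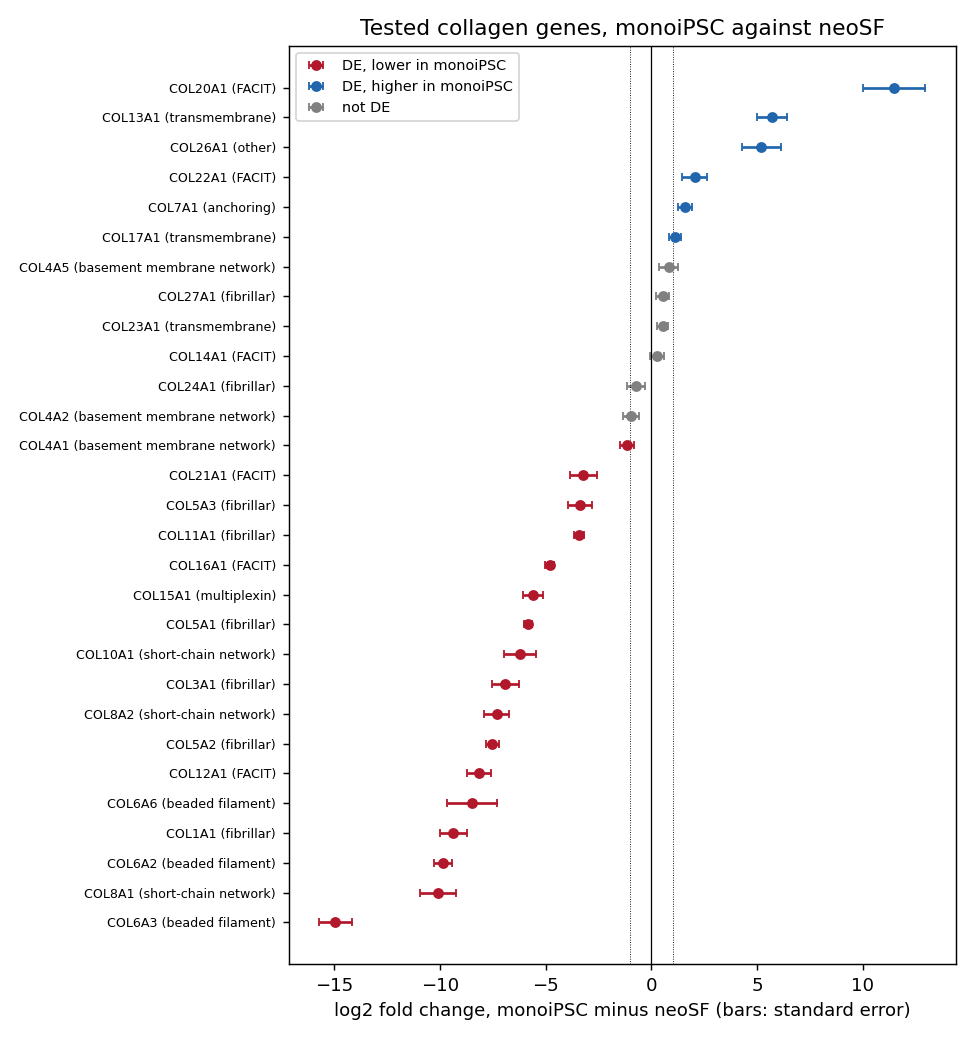
Log2 fold change of monoiPSCs against neoSFs for the 29 tested collagen genes, with bars for the SE. Genes are ordered by log2 fold change, with the class in brackets, and marked by whether the gene was DE. The values run from -14.96 for COL6A3 to 11.47 for COL20A1, the latter a fitted value against 0 counts and no bound, and COL4A2, COL24A1, COL14A1, COL23A1, COL27A1 and COL4A5, which were not DE, lie nearest to 0.

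The composition of the collagen counts differed between neoSFs and monoiPSCs. Fibrillar genes held 69.0% and 76.2% of the collagen counts in FD2M1 and LSD1 neoSFs and 45.9%, 38.0%, 39.5% and 32.1% in monoiPSCs. Basement membrane genes held 0.973% and 1.49% in neoSFs and 31.8%, 43.8%, 35.7% and 52.5% in monoiPSCs. Type VI genes went from 8.97% and 7.70% in neoSFs to between 0.254% and 0.805%. The transmembrane genes made up at most 0.0320% in neoSFs and 4.87% to 5.79% in monoiPSCs. These shares are of a small sum in monoiPSCs, so a gain in share is not a rise in level, and COL4A1 was lower by NRC. COL1A1 held 47.5% and 56.5% of the collagen counts in neoSFs and 2.37% to 10.7% in monoiPSCs. The groups did not overlap for any of these shares, and 4 libraries against 2 cannot reach an exact two-sided p below 0.0667.

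**Figure D3:**
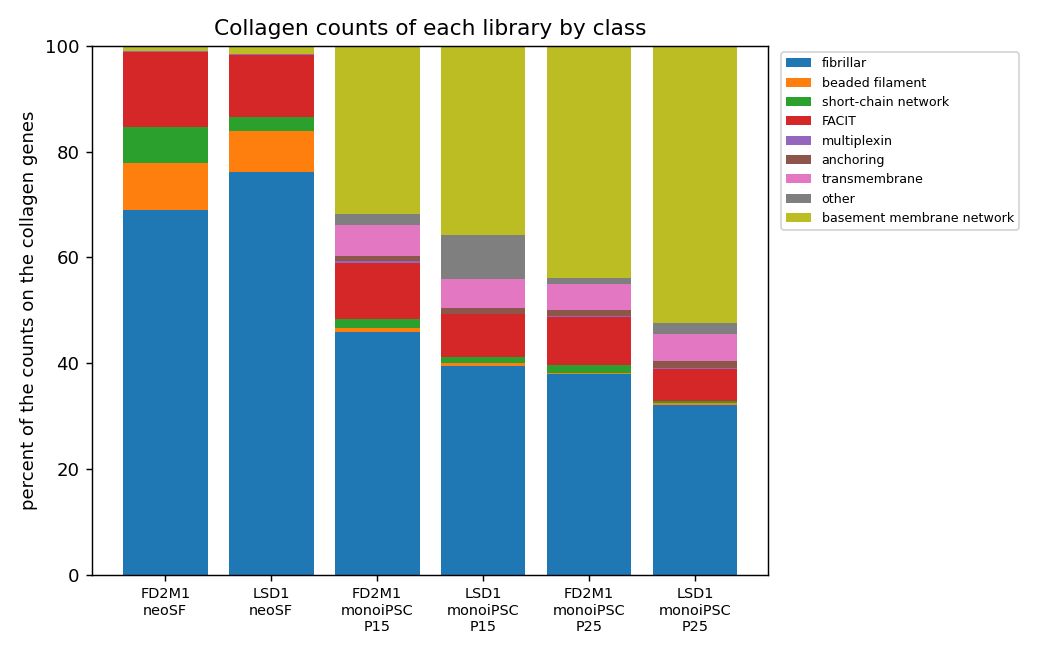
Share of the collagen counts held by each class, in percent, with 1 stacked bar per library. The fibrillar share falls from 69.0% and 76.2% in neoSFs to 32.1% to 45.9% in monoiPSCs, where the basement membrane share reaches 31.8% to 52.5%.

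Chains that share a trimer or a neighbourhood, and also COL3A1 with COL1A1, were compared by count ratio within a library. COL4A2 and COL4A1 lie next to each other in RefSeq. There were 0.972 and 1.00 COL4A2 counts per COL4A1 count in neoSFs and 0.976, 1.06, 1.12 and 1.31 in monoiPSCs, with overlap. COL3A1 and COL5A2 also lie next to each other, and their ratio was 2.09 and 1.48 in neoSFs and 4.51, 2.88, 1.82 and 1.13 in monoiPSCs, with overlap. The ratio of COL3A1 to COL1A1 was 0.191 and 0.137 in neoSFs and 0.371 to 1.39 in monoiPSCs, with no overlap. A count also grows with transcript length, so each ratio is compared only between libraries.

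Passage 25 was compared with passage 15 within the monoiPSC lines, with strain as a term in the fit, over 12252 genes and 25 of the collagen genes. None of the 25 was DE by edgeR, and 0 of all genes tested were (0.0%). At an unadjusted p under 0.05 there were 8 collagen genes, 5 of them higher and 3 lower at passage 25, beside 9.35% of all genes. DESeq2 called 115 of all genes (0.939%) and 0 collagen genes, and limma 0 collagen genes. The smallest p-values belonged to the type IV pair. COL4A2 had 3611 at passage 15 and 7435 at passage 25 in FD2M1, and 4328 and 8262 in LSD1, a log2 difference of 0.97 (SE 0.14, unadjusted p = 0.000454, adjusted p = 0.162). COL4A1 had a log2 difference of 0.81 (SE 0.15, unadjusted p = 0.00156, adjusted p = 0.242), also with higher values at passage 25 in both lines. The other 6 were COL4A5 at 0.61 (SE 0.23, adjusted p = 0.509), COL13A1 and COL7A1 on the higher side, and COL20A1, COL26A1 and COL6A2 on the lower side.

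The LSD1 line was compared with the FD2M1 line, with passage as a term. By edgeR 0 of the 25 collagen genes were DE, against 0.0% of all genes, and 6 had an unadjusted p under 0.05 (1 higher and 5 lower in LSD1) beside 14.2% of all genes. COL3A1 had an NRC of 2137 and 2008 in FD2M1 and 639 and 519 in LSD1, a log2 difference of -1.84 (SE 0.17, unadjusted p = 2.93e-05, adjusted p = 0.13). DESeq2 called COL3A1 (adjusted p = 1.9e-11) and COL26A1 (log2 difference 1.19, adjusted p = 0.0291) among 192 of all genes (1.57%), and limma called 0 collagen genes. COL15A1 and COL8A1 were lower in LSD1 at unadjusted p under 0.05, with log2 differences of -1.41 (SE 0.38, adjusted p = 0.234) and -1.27 (SE 0.43, adjusted p = 0.287). The summed NRC of the 9 fibroblast markers was 10934 and 9209 in the FD2M1 line and 7284 and 6199.7 in the LSD1 line. PRRX1, PDGFRA, LUM, DCN and TWIST1 differed between the lines as the sum did, while FAP, THY1 and FN1 overlapped. PDGFRB went the other way, at 159 and 243 in the FD2M1 line and 405 and 410 in the LSD1 line. The part of these markers in the collagen differences was not tested. With 1 line per strain, line and strain cannot be told apart.

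**Figure D4:**
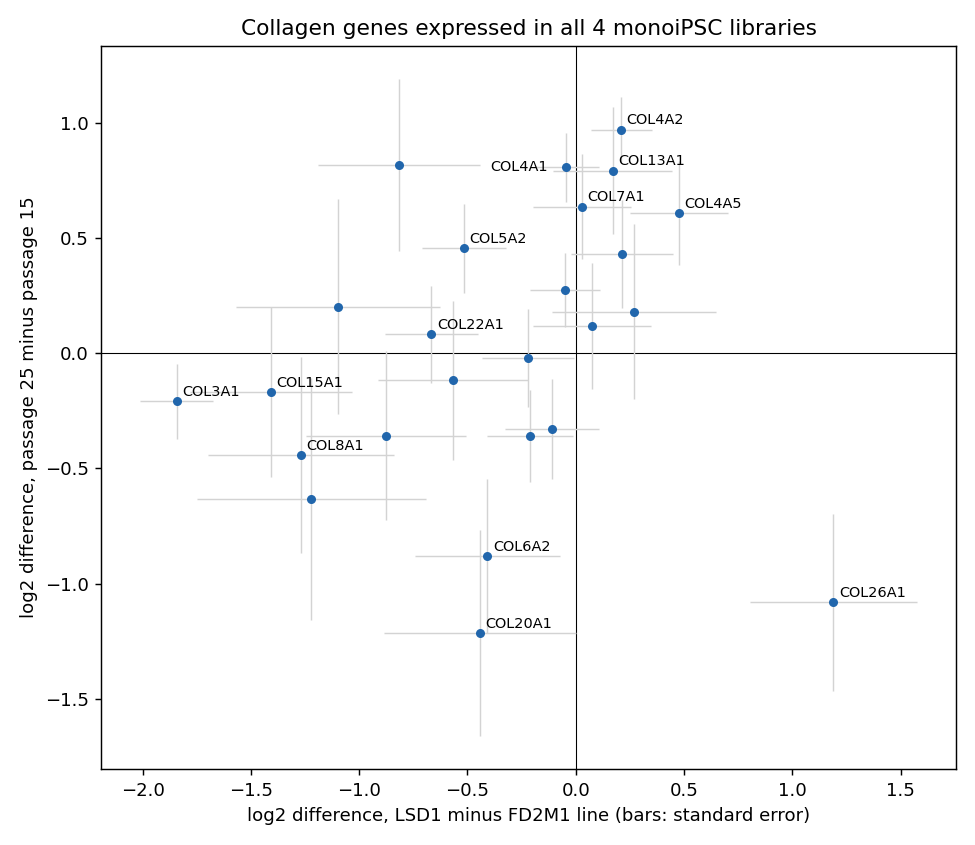
Log2 differences of the 25 collagen genes tested within the monoiPSC lines, for passage 25 against 15 and for LSD1 against FD2M1, with bars for the SE. COL4A2 lies at 0.97 for passage and COL3A1 at -1.84 for strain, and 0 genes were DE in either comparison.

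The genes that fold, cross-link and cut collagen were counted from a list of 32, of which 31 were tested. In monoiPSCs 21 were lower (21.6% of all genes tested were), 2 were higher (24.3% of all genes) and 8 were not DE, with a median log2 fold change of -1.94 against 0.08 for all genes tested. The collagen chaperone SERPINH1 was at -1.57 (SE 0.23, adjusted p = 0.000848), the procollagen N-proteinase ADAMTS2 at -6.54 (SE 0.41, adjusted p = 2.88e-05) and the cross-linking enzyme LOX at -7.40 (SE 0.35, adjusted p = 1.2e-05). Its relatives LOXL1 and LOXL2 were at -6.20 and -5.10, and the prolyl hydroxylase subunits P4HA1 and P4HA2, which stabilise the helix, at -2.67 and -2.73. The higher genes were the procollagen C-proteinase relative TLL2, at 6.46 (SE 0.54, adjusted p = 7.68e-05), and the collagen galactosyltransferase COLGALT2, at 2.03 (SE 0.70, adjusted p = 0.0374). Of 10 collagen receptors listed, 8 were tested, of which 6 were lower (background 21.6%), 1 was higher (background 24.3%) and 1 was not DE. The fibroblast integrin subunit ITGA11 was at -11.87 (SE 0.26, adjusted p = 3.14e-06) and the endocytic receptor MRC2 at -4.29 (SE 0.27, adjusted p = 2.72e-05). ITGA2, an alpha subunit of epithelia and platelets, was higher at 3.94 (SE 0.47, adjusted p = 0.000366), and DDR1, the epithelial discoidin receptor, was at 0.42 (SE 0.27, adjusted p = 0.208).

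The cartilage collagens COL9A1, COL9A2, COL9A3 and COL11A2 were left out of the set above and did not reach the DE threshold in edgeR. COL9A3 had an NRC of 4992 in FD2M1 and 38.3 in LSD1 neoSFs and 4101, 3363, 5192 and 3336 in monoiPSCs. The log2 fold changes of the 4, in the order named, were 0.70, 1.90, 0.77 and 1.58, with adjusted p of 0.649, 0.12, 0.603 and 0.0749. The FD2M1 neoSFs, which held more of the chondrocyte markers, were the higher neoSF library in each of the 4.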

How the data were processed

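The deposited raw counts were estimated counts per RefSeq gene, many of them fractional (86.8% of values above 0 were not whole, tolerance 1e-06). To make them, the authors aligned reads to MonDom5 and its RefSeq transcripts in StrandNGS, removed reads of low quality, low mapping quality or short length and non-primary multiple mappings, and counted reads per gene. The deposited normalized file held log2 values after DESeq normalization, with values under 1 at 0. How paired reads were counted is not given in the sources used here, and the sources name a stranded and an unstranded kit. Reads of near-identical or overlapping genes may be split between them.

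Counts were rounded, scaled by TMM and tested with edgeR 4.0.16 in R 4.3.3 (quasi-likelihood test). The filter kept genes that reached an NRC of 20 throughout a cell type, and DE stood for a fold change of 2 or more with an adjusted p of 0.05 or less. A strain-adjusted passage test and a passage-adjusted strain test used the 4 monoiPSC libraries alone, at an NRC of at least 20 in all 4. Alternatives used RLE scaling, DESeq2 1.42.0, limma 3.58.1 on the deposited log2 values, no filter, collagen genes left out of the scaling, summed passages, counts of monoiPSCs divided by 2, a strain block and each library left out. The strain names pair each line with its parent culture by origin, and deviations of same-strain libraries correlated at 0.040 across 13072 genes. The code was tested on simulated data. Tables were made with Python 3.11.15.

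The members and gene lists were chosen with earlier results of these data known. Full statistics were given for DE genes with a mean NRC of at least 1000 in either group, all higher DE genes and all genes tested and not DE. Gene numbers and chromosomes follow MonDom5, and neighbours follow RefSeq mMonDom1.pri, where 31 of 32 genes matched by gene number. The 2 footnote rows at the end of each file were left out.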

Additional observations from a re-analysis of the deposited data

Results flagged for a closer look

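In a group of 4 libraries, a lone library far from the others is expected by chance in about 1 in 20 groups. Among the 25 collagen genes tested within the monoiPSC lines, COL12A1 and COL26A1 were the genes with such a library. At that rate a set of 25 genes can hold a few such cases by chance alone. COL12A1 stood out in FD2M1 at passage 25, with an NRC of 1635 against 523 to 545 in the other 3 monoiPSC libraries, so that the gap to the nearest library was 0.980 of the range. The summed NRC of the 9 fibroblast markers was 9209 in that library and 6199.7 to 10934 in the others. LUM, at 875 against 249 to 639, and FN1, at 4165 against 3052 to 4020, were highest in that library. The remaining fibroblast markers were highest in another library. The part of these markers in COL12A1 was not tested. COL26A1 stood out in LSD1 at passage 15, with an NRC of 2017 against 428 to 559 in the other 3, a gap of 0.917 of the range. The summed NRC of 4 melanocyte markers was highest in the same library, at 15555 against 4601 to 8096, and their part was not tested.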

How the results depend on the processing

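The number of collagen genes that were DE was 23, and 21 to 24 over 14 alternatives, with 16 to 19 lower and 4 to 7 higher. Leaving out a library gave 23 to 24 DE genes in all, 16 to 19 lower and 5 to 7 higher. Of 406 values of single genes, 394 kept their direction and side of the threshold, and 22 of 29 genes kept both throughout. COL4A1, COL17A1 and COL22A1 lost their call under a setting, and COL4A2, COL4A5 and COL24A1 gained one, as given beside those genes. With a library left out, the log2 fold change of COL14A1 ran from -0.0072 (reversed, without FD2M1 at passage 15) to 0.42, and that of COL24A1 from -1.28 to 0.21 (reversed, without the LSD1 neoSFs). The cause was not tested. With DESeq2, 2 collagen genes differed between the lines, against 0 by edgeR. The strain as a replicate block changed no count, which stayed at 23, and the fits without the replicate block gave 0 for both passage and strain. Without the filter the median log2 fold change moved from -3.38 to -2.47 for the collagen genes and from 0.08 to 0.23 for all genes, over more genes of low count. The collagen share differed by 7.24 points, 7.33 over protein-coding counts and 6.94 to 7.54 with a library left out. No library could be left out of the passage and strain fits, as 3 libraries leave no residual degrees of freedom. Depth and the floor limit COL6A3, COL6A6, COL10A1, COL13A1 and COL20A1, whose fold changes rest on few counts in 1 group.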

Other observations

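Collagen genes that the files list under a gene number, and that RefSeq names COL25A1 and COL4A6, lay outside the symbol rule. The gene of the transmembrane collagen COL25A1 (LOC100011171, chromosome 5) had an NRC of 23.4 in FD2M1 neoSFs and 4.52 in LSD1 neoSFs, the latter under the floor. In the monoiPSC libraries it was at 376, 191, 193 and 333. It was higher in monoiPSCs (log2 fold change 4.42, SE 0.68, adjusted p = 0.00112), a value that rests on few neoSF counts. The gene of the basement membrane chain COL4A6 (LOC100025514, chromosome X) had 61.0 in FD2M1 neoSFs, 182 in LSD1 neoSFs and 112, 211, 185 and 226 in the monoiPSC libraries. It was not DE (log2 fold change 0.68, SE 0.49, adjusted p = 0.261), and the groups overlapped.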
